A study of Mus musculus with 2 samples.

Results

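The collagen gene family was described in 2 RNA sequencing libraries of the mouse urinary bladder. Its members were all genes whose mouse symbol is Col, a number, the letter a and a number, found in the gene tables of both libraries. This gave 44 genes of 43346 Ensembl genes, and all 44 were protein coding. Both libraries came from urinary bladder of adult C57BL/6J mice aged 8 weeks, described as littermates of mixed sex, and carry different biosample and replicate numbers. They hold polyadenylated RNA longer than 200 nucleotides, depleted of ribosomal RNA and sequenced with strand kept. Both name the same donor entry, and how many animals each holds is not given in the sources used here, so an SD over n = 2 measures the spread between these libraries, which may be partly technical. There was 1 group and no treatment, so no comparison of conditions and no p-value is given.

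Collagens are secreted or membrane-bound proteins in which chains wind into triple helices, each chain repeating a short unit that begins with glycine, the only residue small enough for the inside of the helix. The fibril-forming chains build the load-bearing fibres of the bladder wall, type VI chains build beaded filaments around cells, and type IV chains build the sheet under the urothelium and around each smooth muscle cell and vessel. In the bladder these fibres and sheets set how far the wall stretches as it fills.

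The libraries held 105057347 expected counts on genes in replicate 2 and 99367453 in replicate 1. Levels are given as TPM (transcripts per 1000000, a level per transcript length). All 6 smooth muscle genes, all 7 urothelial genes and all 4 fibroblast genes examined had at least 1 TPM in both libraries. So did 4 of 4 endothelial, 4 of 4 Schwann cell, 4 of 4 mesothelial, 3 of 4 adipocyte, 2 of 4 skeletal muscle and 2 of 4 skin keratinocyte genes. Since 60.5% of all protein-coding genes did too, passing 1 TPM says little of the tissue. The tissue label fitted the summed levels better. These were highest for the smooth muscle, urothelial and fibroblast lists, with means of 26244, 5126 and 3059 TPM. The skeletal muscle list averaged 1468 TPM, mostly Acta1 (1206), and the skin keratinocyte list 5.4 TPM. Of the cartilage markers 5 of 6, and of the bone markers 5 of 5, were under 1 TPM in both. Since whole tissue was sequenced, fewer cells of a type and less RNA per cell cannot be told apart in any level below.

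The repeat that defines the family at the protein level was visible in the coding sequence of every member. In frame, a glycine codon (GGN) recurred every 9 bases for at least 20 units in a row in all 44 collagens, against 20 of 21822 other protein-coding genes examined in the GENCODE M21 transcripts. The longest uninterrupted run was 344 units in Col3a1, and 9 of the 11 fibril-forming genes had runs of 337 to 344 units. Runs were 87 units in Col6a1 and Col6a2, 39 to 66 units in the 6 type IV genes and 23 units in Col26a1, the shortest. The 9-base unit also showed in the exon lengths. Of 1937 internal coding exons of collagen genes, 63.3% had a length divisible by 9, against 13.7% of 163884 in other protein-coding genes, and 24.2% were exactly 54 bases long, against 0.457%. The 54-base exon made up 48.3% of internal coding exons in the fibril-forming class, 26.0% in the fibril-associated class and 4.23% in the type IV genes.

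Such exons of 4 abundant members are printed to show the shared unit. They are from mm10 and GENCODE M21, 5′ to 3′ on the coding strand, with each in-frame glycine codon in capitals. They lie at chr1:45334761-45334814 (+), chr11:94944355-94944408 (+), chr6:4524117-4524170 (+) and chr8:11238998-11239051 (-). Each holds 6 glycine codons, and between them the 2 codons of each unit differ from gene to gene.
Col3a1 exon 26: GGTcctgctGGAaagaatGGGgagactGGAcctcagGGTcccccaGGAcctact
Col1a1 exon 26: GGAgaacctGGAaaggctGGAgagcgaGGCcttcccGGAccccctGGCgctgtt
Col1a2 exon 27: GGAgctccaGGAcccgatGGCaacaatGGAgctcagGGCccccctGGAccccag
Col4a1 exon 17: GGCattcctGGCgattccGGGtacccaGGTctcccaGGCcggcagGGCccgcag

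Collagens were widely but very unequally transcribed in the bladder. Of the 44, 32 had at least 1 TPM in both libraries; the share passing that level was 32.7% over all genes and 60.5% over protein-coding genes. Together they took 0.474% of gene TPM in replicate 2 and 0.566% in replicate 1 (0.520 ± 0.066%, SD, n = 2). Not divided by length, they took 1.58% of gene counts in replicate 2 and 1.90% in replicate 1. The 3 highest genes held 63.0% of collagen TPM and the 10 highest held 89.5%. By mean TPM, 3 genes were above 500, 10 above 100, 17 above 20 and 23 above 5, while 11 were below 1. The fibril-forming class held 65.9 ± 0.97% of collagen TPM, type VI 15.2 ± 0.33%, the fibril-associated class 7.87 ± 0.94%, type IV 6.84 ± 0.52% and the multiplexins 2.94 ± 0.054% (SD, n = 2). The other 4 classes held 0.693% or less each on average. The order of the fibril-associated class and type IV was not stable, and both held 7.21% in replicate 1. Type IV was ahead with 9.11% against 6.73% of expected counts. It was also ahead with 8.42% against 4.04% when only transcripts at least 50% as long as the gene's longest were counted. In the mm9 values described below the fibril-associated class was ahead, with 9.81% against 7.48%.

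**Figure D1:**
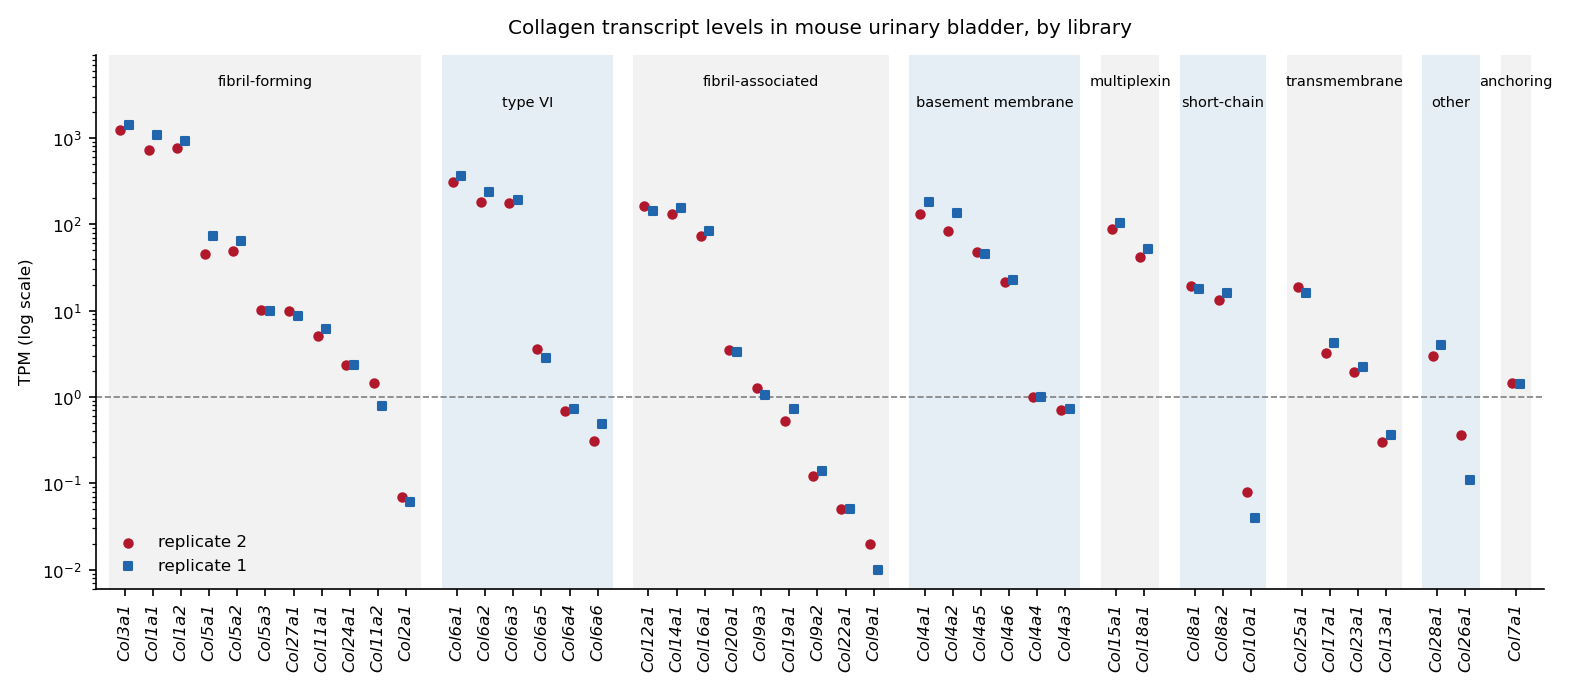
TPM on a log scale of the 44 collagen genes, grouped by class, with replicate 2 (red circles) and replicate 1 (blue squares) side by side and a dashed line at 1 TPM. Levels run from 1240 TPM in replicate 2 and 1396 TPM in replicate 1 for Col3a1 to 0.02 TPM in replicate 2 and 0.01 TPM in replicate 1 for Col9a1.

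Among the fibril-forming chains, the type I and type III genes stood far above the others. Col3a1, the only chain of type III collagen, which is plentiful in distensible organs, had 1240 TPM in replicate 2 and 1396 TPM in replicate 1. Col1a1, the major chain of type I collagen, had 716 TPM in replicate 2 and 1071 TPM in replicate 1. Col1a2, the other type I chain, had 766 TPM in replicate 2 and 908 TPM in replicate 1. All 3 were lower in replicate 2, and Col1a1 differed most between libraries, so that Col1a2 over Col1a1 was 0.096 on the log2 scale in replicate 2 and -0.24 in replicate 1 (mean -0.071 ± 0.24). Their order is therefore not settled by 2 libraries.

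Type V chains, which sit inside type I fibrils and limit their width, came next. Col5a1 had 45.0 TPM in replicate 2 and 73.6 TPM in replicate 1. Col5a2 had 49.1 TPM in replicate 2 and 63.1 TPM in replicate 1. Col5a3 was lower, with 10.2 TPM in replicate 2 and 9.97 TPM in replicate 1, a log2 difference from Col5a1 of -2.46 ± 0.51. Col5a1 and Col5a2 did not differ beyond their spread (log2 0.049 ± 0.24). Col27a1 had 9.97 TPM in replicate 2 and 8.60 TPM in replicate 1. Col11a1, a type XI chain best known from cartilage, had 5.13 TPM in replicate 2 and 6.15 TPM in replicate 1. Its partner Col11a2 had 1.46 TPM in replicate 2 and 0.79 TPM in replicate 1. Col24a1 averaged 2.33 TPM. The cartilage chain Col2a1 had 0.07 TPM in replicate 2 and 0.06 TPM in replicate 1, from 27 expected counts in replicate 2 and 22 in replicate 1.

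Of the type VI chains, the 3 that make the common filament were abundant and the 3 later-described chains were not. Col6a1 had 310 TPM in replicate 2 and 364 TPM in replicate 1. Col6a2, which lies 85161 bases from it on chromosome 10 on the same strand, had 180 TPM in replicate 2 and 235 TPM in replicate 1. Col6a1 exceeded Col6a2 in both libraries (log2 0.71 ± 0.10). Col6a3, the longest chain, had 177 TPM in replicate 2 and 190 TPM in replicate 1, but most of that level lay in a short transcript described below. Col6a6, Col6a5 and Col6a4, which follow each other on chromosome 9, averaged 0.40, 3.20 and 0.71 TPM.

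The fibril-associated chains coat fibrils and link them to other matrix. Col12a1 had 163 TPM in replicate 2 and 140 TPM in replicate 1. Col14a1 had 131 TPM in replicate 2 and 155 TPM in replicate 1. Col16a1, which associates with several fibril types, had 73.4 TPM in replicate 2 and 82.9 TPM in replicate 1. Col12a1 and Col14a1, close relatives, changed order between the libraries. The other 6 members averaged 3.40 TPM or less. The 3 type IX genes, which coat cartilage fibrils, were Col9a3 with 1.26 TPM in replicate 2 and 1.05 TPM in replicate 1, Col9a2 at a mean of 0.13 TPM, and Col9a1 with 4 expected counts in replicate 2 and 3 in replicate 1. The multiplexins, basement membrane collagens whose cleaved ends inhibit vessel growth, were Col15a1 with 88.2 TPM in replicate 2 and 103 TPM in replicate 1, plus Col18a1 with 41.9 TPM in replicate 2 and 51.3 TPM in replicate 1.

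The 6 type IV genes lie in 3 head-to-head pairs, and the pairs were transcribed at different levels. Col4a1 and Col4a2, which assemble together in nearly every basement membrane, had 129 and 82.4 TPM in replicate 2 and 181 and 133 TPM in replicate 1. Col4a1 was the higher of the pair in both libraries, by 0.54 ± 0.15 on the log2 scale. Col4a5 had 47.7 TPM in replicate 2 and 44.9 TPM in replicate 1. Col4a6 had 21.1 TPM in replicate 2 and 22.8 TPM in replicate 1, a log2 difference of 1.06 ± 0.14. Their chains assemble together in the basement membranes of smooth muscle. Col4a3 and Col4a4, whose chains form a network with α5(IV) in the kidney glomerulus, averaged 0.71 and 1.00 TPM. The order of the pairs was the same in both libraries.

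The starts of each pair are close: the gene spans of Col4a1 and Col4a2 on chromosome 8 overlap by 22 bases, Col4a4 and Col4a3 on chromosome 1 are 71 bases apart, and Col4a6 and Col4a5 on chromosome X are 1308 bases apart. Within the 22 shared bases, reads of Col4a1 and Col4a2 can be told apart only by strand. The windows from 250 bases before to 50 after the RefSeq start (GRCm38.p6) are printed because both genes start inside them; they overlap by 78 bases. They are chr8:11312777-11313076 (-) and chr8:11312555-11312854 (+). Capitals mark CCAAT and GGGCGG, searched on both strands (ATTGG and CCGCCC are the reverse); TATAAA was searched likewise and neither window held it.
Col4a1 window: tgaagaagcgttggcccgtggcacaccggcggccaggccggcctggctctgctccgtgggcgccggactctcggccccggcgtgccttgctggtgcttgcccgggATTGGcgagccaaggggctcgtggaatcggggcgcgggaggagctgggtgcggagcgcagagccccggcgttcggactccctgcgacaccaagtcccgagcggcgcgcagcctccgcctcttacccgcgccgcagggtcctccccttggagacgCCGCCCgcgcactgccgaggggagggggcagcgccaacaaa
Col4a2 window: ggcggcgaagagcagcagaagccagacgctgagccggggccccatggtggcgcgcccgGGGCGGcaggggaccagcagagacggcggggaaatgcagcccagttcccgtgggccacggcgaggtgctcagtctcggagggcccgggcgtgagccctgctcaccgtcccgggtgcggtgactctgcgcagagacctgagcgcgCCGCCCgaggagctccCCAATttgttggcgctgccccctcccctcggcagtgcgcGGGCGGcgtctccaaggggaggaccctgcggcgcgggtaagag

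The Col4a1 window held 1 CCAAT and 1 GGGCGG, and the Col4a2 window 1 and 3. The GGGCGG of the Col4a1 window lies where the windows overlap and is the same site as 1 of the 3, so it is counted in both. Over all 32851 RefSeq windows of this length, 37.4% held CCAAT, 35.7% GGGCGG and 13.6% TATAAA. Over the 38 windows of the 35 collagens matched by symbol, 13 held CCAAT, 23 GGGCGG and 5 TATAAA. These matches are letters in a window and say nothing of binding.

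The remaining classes were low. The short-chain network genes Col8a1 and Col8a2, found around vessels and in the eye, had 19.5 and 13.2 TPM in replicate 2 and 17.9 and 15.8 TPM in replicate 1, while Col10a1, a marker of cartilage that turns to bone, averaged 0.06 TPM. Exons of Col10a1 overlap those of Nt5dc1 on the opposite strand, which had 9.02 TPM in replicate 2 and 8.03 TPM in replicate 1. Of the transmembrane collagens, Col25a1 had 18.5 TPM in replicate 2 and 16.1 TPM in replicate 1. Col17a1, part of the hemidesmosomes that hold epithelia to the basement membrane, had 3.18 TPM in replicate 2 and 4.24 TPM in replicate 1. Col23a1 averaged 2.08 and Col13a1 0.33 TPM. Col7a1, which forms the anchoring fibrils under skin epithelium, had 1.43 TPM in replicate 2 and 1.41 TPM in replicate 1. Col28a1 averaged 3.50 TPM, Col20a1 3.40 TPM, Col19a1 0.625 TPM, Col26a1 0.235 TPM and Col22a1 0.050 TPM. Col20a1 shares exon sequence with an overlapping gene on the same strand, BX649560.1, which had 3.99 TPM in replicate 2 and 4.04 TPM in replicate 1, so its level is uncertain. In all, 13 members had an exon that overlaps another annotated gene.

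How the levels compare within the family depended on short annotated transcripts. Among the 22 members of at least 5 TPM with more than 1 transcript, there were 5 in which the transcript with most TPM was less than 50% as long as the longest one quantified. In Col3a1 the full transcript Col3a1-201 (5564 bases) held 64.8 ± 0.38% of the gene's TPM and a 737-base transcript, Col3a1-205, held 34.6 ± 0.69%, but Col3a1-205 took 5.02 ± 0.047% of the gene's expected counts. In Col6a3 a retained-intron transcript of 646 bases, Col6a3-206, held 54.5 ± 1.1% of TPM from 6.00 ± 0.42% of counts, while the 9001-base Col6a3-202 held 39.8 ± 1.5% of TPM and 87.3 ± 0.82% of counts. Short transcripts also led in Col12a1 (Col12a1-204, 68.2% of TPM), Col15a1 (Col15a1-203, 58.7%), Col16a1 (Col16a1-207, 50.8%) and Col14a1 (Col14a1-204, 49.9%). The long transcripts Col14a1-203, Col15a1-202 and Col12a1-201 held 41.2%, 39.2% and 29.8%. The leading transcript was the same in both libraries.

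Each of these short transcripts was placed on its long form in GENCODE M21 by the bases that lie in exons of the long form. These were 73.5% of Col14a1-204, 74.5% of Col6a3-206 and 77.1% of Col16a1-207, which may begin or end elsewhere. There Col14a1-203 has 5679 bases, against 6447 as quantified. The Col16a1 form used, Col16a1-209, is annotated for nonsense-mediated decay. The shared bases began far inside each long form. The first shared base of Col3a1-205 falls 49.2% of the way along Col3a1-201, that of Col15a1-203 67.0% of the way and that of Col14a1-204 68.3%. For Col12a1-204 it falls at 74.3%, for Col16a1-207 at 87.4% and for Col6a3-206 at 88.8%. The last shared bases differed. Those of Col12a1-204, Col15a1-203 and Col16a1-207 lie within 7 bases of the end of the long form. Those of Col14a1-204, Col6a3-206 and Col3a1-205 lie 271, 529 and 1218 bases before it. In contrast, single long transcripts held nearly all TPM of Col1a1 (Col1a1-201, 99.1%), Col1a2 (Col1a2-201, 94.2%), Col6a1 (Col6a1-201, 99.9%), Col6a2 (Col6a2-201, 91.1%), Col4a1 (Col4a1-201, 99.6%), Col4a2 (Col4a2-201, 99.7%), Col4a6 (Col4a6-201, 99.0%), Col5a2 (Col5a2-201, 96.0%) and Col5a1 (Col5a1-201, 86.1%). Col18a1-202 held 74.9% of Col18a1. Col4a5 was split between Col4a5-204 (58.1 ± 4.1%, 3511 bases) and Col4a5-202 (34.6 ± 4.9%, 6536 bases).

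The mean lead of Col3a1 over Col1a1 was lost when its short transcript was not counted. On TPM of all transcripts Col3a1 exceeded Col1a1 by 0.59 ± 0.29 on the log2 scale. With only transcripts at least 50% as long as the longest counted, Col3a1 had 801 TPM in replicate 2 and 910 TPM in replicate 1, Col1a1 had 708 TPM in replicate 2 and 1064 TPM in replicate 1. The difference was -0.024 ± 0.29. The order of these genes then differed between the libraries. Col3a1 stayed above Col1a2 in both libraries, by 0.11 ± 0.063 on the log2 scale against 0.66 ± 0.053 on all transcripts. Col1a1 (886 TPM), Col3a1 (855) and Col1a2 (792) had similar long-form means, and below them came Col6a1 (337), Col6a2 (207), Col4a1 (155) and Col4a2 (107). Col6a3 dropped to 77.9 TPM and was 2.10 ± 0.14 below Col6a1 on the log2 scale, against 0.87 ± 0.090 below it on all transcripts (log2 means of -2.10 and -0.87). Col15a1 and Col18a1 were 1.03 ± 0.046 apart on all transcripts and 0.037 ± 0.035 apart on long forms. Col15a1 was ahead by 0.49 in expected counts and by 1.43 in the mm9 values described below. Leaving out short transcripts removed 31.2% of Col15a1 counts and 6.14% of Col18a1 counts, so long forms alone do not settle this pair. The Col4a1 and Col4a2 difference was 0.54 on all transcripts and on long forms.

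**Figure D2:**
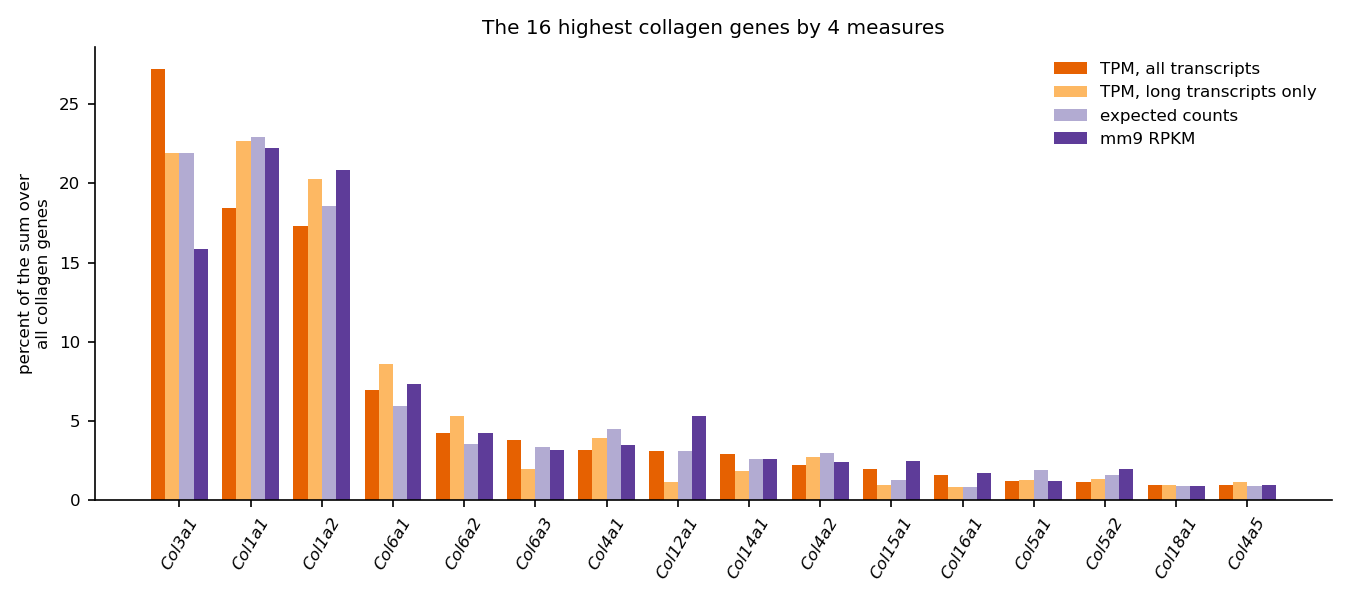
Share of the sum over all collagen genes (percent) taken by each of the 16 highest collagens, by TPM of all transcripts, TPM of long transcripts only, expected counts and mm9 RPKM. Col3a1 leads by TPM with 27.2% and takes 21.9%, 21.9% and 15.9% by the other measures, where Col1a1 takes 22.7%, 22.9% and 22.2%.

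A separate quantification of the same libraries on mm9 gave a close broad order with Col3a1 as an exception. The authors' mm9 table for Ensembl release 65 gives 2 values per gene of reads per kilobase and per 1000000 mapped reads (RPKM) that no label ties to a library, so their mean is given with no error. All 44 collagens had a value. Col1a1 led with 149 RPKM, then Col1a2 with 139, Col3a1 with 106, Col6a1 with 49.3, Col12a1 with 35.7 and Col6a2 with 28.5. The rank correlation with mean mm10 TPM over the 44 genes was 0.992, over genes that share both libraries. RPKM was lower than TPM for most genes (median log2 -2.38 over 13953 genes with 0.5 added to both values), so ratios are given relative to that median. Past 2-fold relative to it were 3 collagens upward (Col9a3, Col11a2 and Col4a4) and 1 downward (Col3a1, log2 -1.25) of 33 compared, beside 7.09% of all genes upward and 3.71% downward. The 3 upward genes averaged 1.16 TPM or less, where the added 0.5 weighs most, and with 0.1 added none of them passed. Col3a1 passed with either, but reached only -0.94 when RPKM was first scaled to sum to 1000000, and -0.45 with that scaling against long forms. Against long forms 3 other collagens were past 2-fold upward, Col12a1 (log2 2.17), Col15a1 (1.31) and Col27a1 (1.14), none of them past it on all transcripts, beside 10.8% of all genes upward and 2.96% downward. With that scaling and all transcripts Col7a1 was the only collagen past 2-fold (log2 -1.22), beside 3.87% of all genes upward and 3.96% downward.

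Reads that cross introns gave a further view of the same genes. The authors' mm9 junction table, whose counts are summed over both libraries, held 4304546 reads within collagen genes, 3.77% of all junction reads, and 99.0% of them lay on introns annotated in Ensembl 65. Reads covered 1914 of 2134 annotated collagen introns. The median per intron was 19418 reads in Col3a1, 18514 in Col1a1 and 15626 in Col1a2, then 5473 in Col6a1, 3425 in Col6a2, 2303 in Col4a1, 2186 in Col14a1, 1490 in Col6a3 and 1480 in Col4a2. By this measure, too, Col3a1 and Col1a1 were close.

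Reads were denser toward the 3′ end. With the introns of the transcript with most exons divided into 3 equal runs, the median of the 3′ run exceeded that of the 5′ run in 26 of 29 collagens (89.7%) with at least 10 introns and a median of at least 10 reads, with a median ratio of 1.62. Other genes passing the same limits had the 3′ run higher in 82.8% of 5692, with a median ratio of 1.64. The ratio was 1.70 in Col3a1, 1.44 in Col1a1, 2.30 in Col1a2 and 0.853 in Col6a1. It was 8.20 in Col12a1, where the 5′ run had a median of 214 reads and the 3′ run 1754. Whether this slope contributes to the TPM of the short transcripts was not tested.

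**Figure D3:**
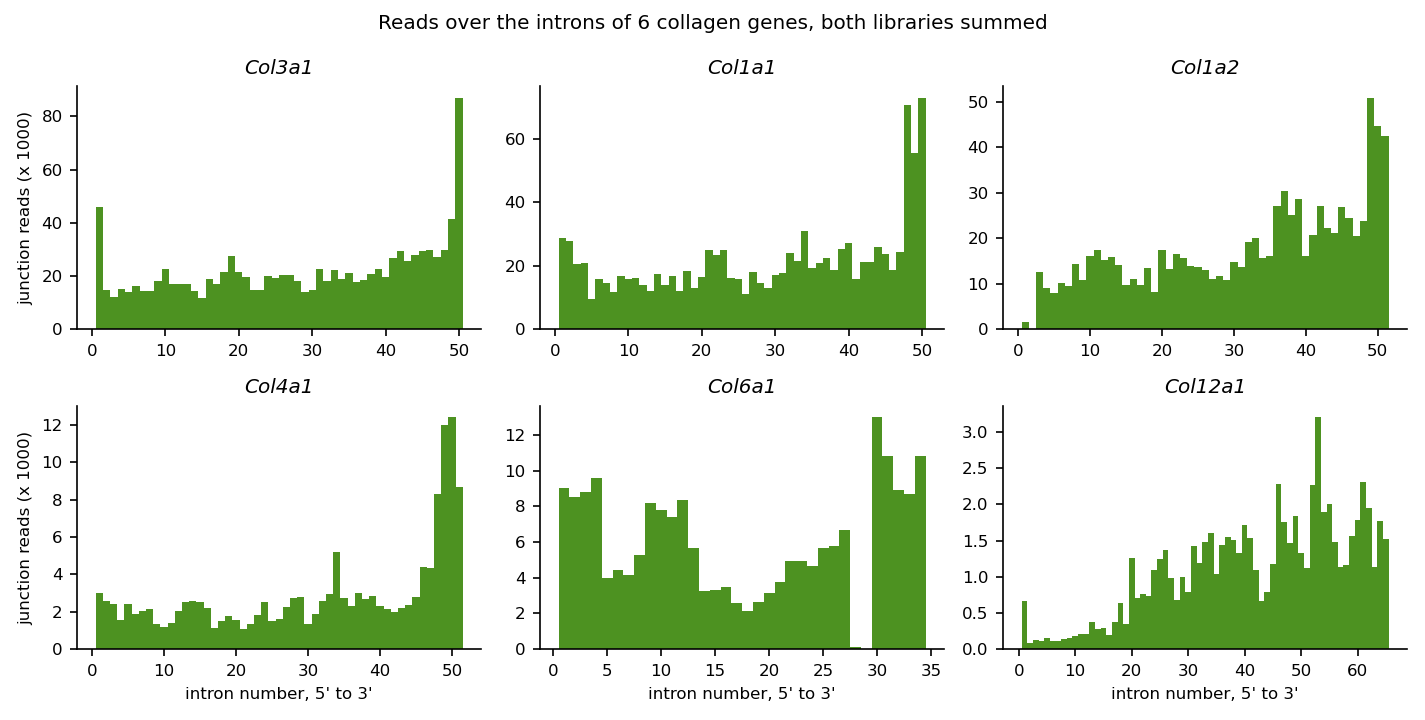
Junction reads, in units of 1000 and summed over both libraries, over each intron of 6 collagen genes from the 5′ to the 3′ end. Reads are highest over the last introns in Col3a1, with 87014 over the last, Col6a1 has 116 and 3 reads over introns 28 and 29, and Col12a1 has few reads over its first introns.

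Col12a1 had an exon skip near its 5′ end. Type XII collagen is made in a long form and in a short form that lacks part of its amino-terminal domains. In these libraries 477 reads joined exon 2 to exon 18, leaving out exons 3 to 17 (3492 bases), against a mean of 195 reads over each of the junctions that include them. Junction 1, before the skip, had 665 reads and junction 18, the first after it, 638, also below the 3′ median of 1754. Skipping reads were 70.9% of skipping and including reads (Wilson 95% interval 67.4 to 74.3%). The including junctions ran from 87 reads at junction 2 to 376 at junction 17. The percent therefore depends on the junction used and is less certain than its interval. The join of exon 2 to exon 18 is not among the Ensembl 65 introns. Intervals here cover counting error only, and reads may be copies of 1 molecule.

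In all, 19 joins that leave out whole exons had at least 20 reads, and all 19 leave out a length divisible by 3 and 16 of them a length divisible by 9. Of all internal coding exons of collagen genes, 86.4% have a length divisible by 3 and 63.3% by 9, so such lengths are common in this family whether skipped or not. In 11 joins the skipping reads were at least 5% of the reads. Col25a1 had 5 of these 11: exon 31 (36 bases) was skipped by 68.8% of reads (57.03 to 79.4%), exon 21 by 52.7% (44.2 to 61.02%), exon 14 by 50% (39.03 to 60.97%), exon 18 by 43.1% (32.8 to 53.5%) and exon 34 by 13.2% (8.80 to 19.3%). Exon 21 is included in Ensembl 65 with no annotated skip, while the skips of the other 4 are annotated. Col4a5 left out exons 43 and 44 together (18 bases) in 54% of reads (43.6 to 64.5%), Col17a1 exon 48 in 34.7% (24.9 to 45.9%), Col16a1 exon 41 in 23.7% (20.7 to 27.0%) and Col6a3 exon 3, of 585 bases, in 7.84% (5.51 to 11.03%). The Col4a5 percent rests on 45 skipping reads and a mean of 38.3 including reads. The median Col4a5 intron had 494 reads, so reads were few at this site and the percent is uncertain. The reason was not tested. In Col11a1, 92 reads left out exon 7 (153 bases) and 0 included it.

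The skipped exons of Col25a1 and Col4a5 are printed to show that whole repeat units are taken out. They are read from mm10 and GENCODE M21 at chr3:130519777-130519803, chr3:130535431-130535475, chr3:130550037-130550081, chr3:130575375-130575410 and chr3:130584700-130584726 for Col25a1, and chrX:141658532-141658540 and chrX:141664676-141664684 for Col4a5, all on the + strand. Capitals mark bases of in-frame glycine codons. In Col25a1 the exons hold 3, 5, 5, 4 and 3 whole units, each starting with glycine. In Col4a5 each glycine codon is split by a junction, with its first base at the end of the exon before.
Col25a1 exon 14: GGAgaacctGGAaaagaaGGAgaaaag
Col25a1 exon 18: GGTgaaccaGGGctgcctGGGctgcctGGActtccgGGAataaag
Col25a1 exon 21: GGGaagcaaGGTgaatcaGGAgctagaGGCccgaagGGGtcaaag
Col25a1 exon 31: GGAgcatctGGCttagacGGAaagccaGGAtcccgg
Col25a1 exon 34: GGCaaagatGGAgaacctGGTcttgat
Col4a5 exon 43: GTcctccaG
Col4a5 exon 44: GTtttcaaG

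The 48-base exon of Col16a1 and the 111-base exon of Col17a1, which lie at chr4:130073069-130073116 (+) and chr19:47650048-47650158 (-), are printed as skipped exons whose lengths are not divisible by 9. Both mix glycine units with other codons.
Col16a1 exon 41: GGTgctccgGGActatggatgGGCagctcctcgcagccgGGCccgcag
Col17a1 exon 48: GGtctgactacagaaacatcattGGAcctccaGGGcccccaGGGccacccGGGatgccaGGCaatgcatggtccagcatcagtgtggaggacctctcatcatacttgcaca

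**Figure D4:**
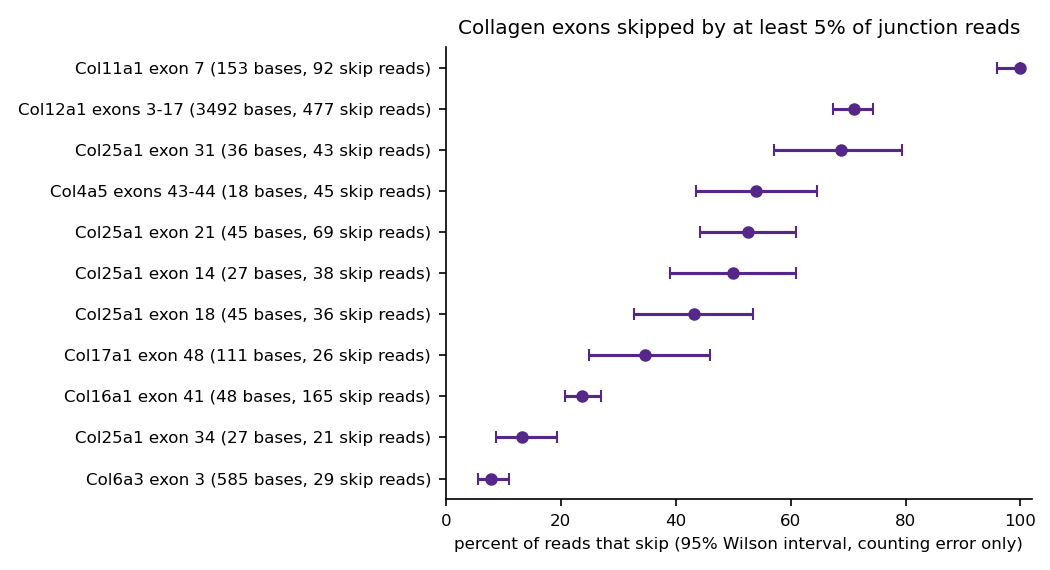
Percent of junction reads that skip the named exon or exons (points) with 95% Wilson intervals, for the 11 skips of at least 5%, both libraries summed. Values run from 7.84% for Col6a3 exon 3 to 100% for Col11a1 exon 7, and Col25a1 supplies 5 of the 11.

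Col5a1 used an exon that Ensembl 65 does not list. Exon 64, at chr2:27884487-27884555 on mm9, is 69 bases long and was entered by 1619 and left by 1275 reads. A second stretch of 69 bases, 61 bases further on at chr2:27884617-27884685, was entered from the same upstream exon by 1315 reads and left to the same downstream exon by 1051 reads. It took 45.0% of the mean of both (Wilson 95% interval 43.1 to 46.9%). No reads joined the end of exon 64 to the new stretch (0 reads), and 22 reads joined a position inside exon 64 to it.

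Long skips at low rates were seen in Col1a1, Col1a2, Col3a1 and Col4a1. Col1a1 exons 25 to 35 were left out by 511 reads against a mean of 18255 (2.72%, 2.50 to 2.97%), Col1a1 exons 17 to 33 by 309 reads (1.71%), Col1a2 exons 32 to 34 by 262 reads (1.51%), Col3a1 exons 31 to 43 by 211 reads (0.980%) and Col4a1 exons 20 to 45 by 68 reads (2.87%). The last 3 of the 19 joins skip single exons of 36 or 54 bases in Col1a1, Col3a1 and Col1a2, with 22 to 25 reads each. None of these joins is an Ensembl 65 intron. The 737 bases of Col3a1-205 are spread from 49.2 to 78.1% of the way along Col3a1-201, a stretch of more bases than that. It therefore leaves out part of that stretch. It held 34.6% of Col3a1 TPM, while the most frequent join leaving out whole Col3a1 exons took 0.980% of reads. Whether any Col3a1 join belongs to Col3a1-205 was not tested.

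Between the libraries no collagen passed a 2-fold difference. Of the 33 with a mean of at least 1 TPM, 0 were past 2-fold in either direction relative to the median gene, beside 0.385% of 14533 genes higher in replicate 2 and 1.46% lower. Ratios ran from -0.79 (Col5a1) to 0.52 (Col11a2) on the log2 scale, with 0.5 TPM added to each value. Collagens were on the low side in replicate 2: 25 of 33 were below the median gene, where 50% of all genes lie by construction, and their median was -0.25. The lowest were Col5a1 (-0.79), Col4a2 (-0.77), Col1a1 (-0.66) and Col4a1 (-0.56), and Col12a1 (0.13) and Col25a1 (0.11) were among those above.

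Gene length moved with this ratio. The median effective length of the 33 collagens was 4551 bases, against 2168 over all genes, and across all 14533 genes the ratio fell with length (Spearman rho -0.35, across genes, which are not independent replicates). The 1676 other genes between 4010 and 5827 bases, the middle range of collagen lengths, had a median of -0.16. With the length trend of the other genes removed, the collagen median was -0.13 and 20 of 33 were below the median gene. Marker lists moved as well: the summed level of the 6 smooth muscle genes was 25032 TPM in replicate 2 and 27456 TPM in replicate 1, that of the 7 urothelial genes 5968 TPM in replicate 2 and 4283 TPM in replicate 1. For the 4 fibroblast genes (3 of them also in the fibril-binding list below) it was 3271 TPM in replicate 2 and 2846 TPM in replicate 1. That sum is mostly Dcn, and Pdgfra, the receptor gene of the list, was lower in replicate 2 with 22.9 TPM, against 34.6 TPM in replicate 1 (log2 -0.67 relative to the median gene). The 4 endothelial genes summed to 64.3 TPM in replicate 2, against 86.3 TPM in replicate 1, with all 4 lower in replicate 2 (median log2 -0.41). The 4 mesothelial genes summed to 197 TPM in replicate 2 and 131 TPM in replicate 1 (median log2 0.63), with Msln past 2-fold higher in replicate 2. Most of that sum is Upk3b (174 TPM in replicate 2, 120 in replicate 1), which is also among the 7 urothelial genes, so these lists are not independent. In the adipocyte list 2 of 4 genes were past 2-fold higher in replicate 2. The part of length and of cell types in the collagen ratios was not tested further.

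**Figure D5:**
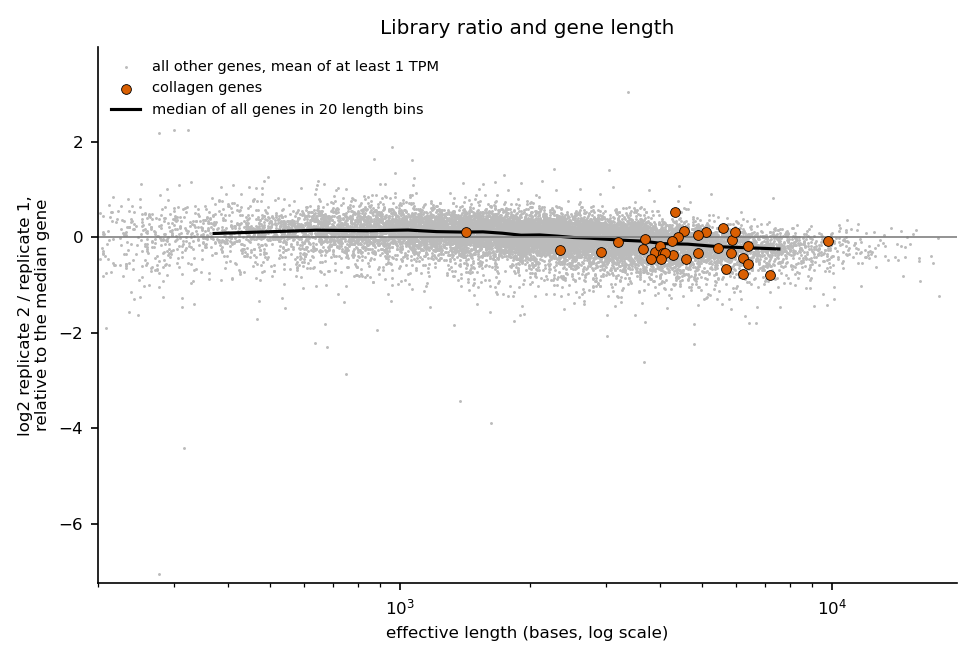
Log2 ratio of replicate 2 over replicate 1, relative to the median gene, against effective length in bases on a log scale, for collagens (orange) and all other genes (grey) with a mean of at least 1 TPM and at least 200 bases; the line joins medians of 20 length bins. Most collagens lie at long lengths, where the line is below 0, and 25 of 33 are below 0.

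Most genes that modify, process or bind collagen were transcribed alongside it. Of 66 such genes, 57 had at least 1 TPM in both libraries, beside 60.5% of all protein-coding genes. In the modification and folding list 19 of 20 did: the highest were Ppib, a prolyl isomerase, with 372 TPM in replicate 2 and 288 TPM in replicate 1, Serpinh1, the collagen chaperone HSP47, with 312 TPM in replicate 2 and 332 in replicate 1, and P4hb, a subunit of prolyl 4-hydroxylase, with 207 TPM in replicate 2 and 249 in replicate 1. Only P4ha3 missed the level, with 0.90 TPM in replicate 2 and 1.41 TPM in replicate 1. In the processing and cross-linking list 13 of 15 did, led by Pcolce, which enhances removal of the carboxyl-terminal propeptide (229 TPM in replicate 2, 216 in replicate 1), the transglutaminase Tgm2 (164 TPM in replicate 2, 190 in replicate 1) and the propeptide protease Bmp1 (54.5 TPM in replicate 2, 50.6 in replicate 1). The Bmp1 relatives Tll1 (0.55 TPM in replicate 2, 0.77 in replicate 1) and Tll2 (0.11 TPM in replicate 2, 0.07 in replicate 1) were under 1 TPM in both libraries.

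Receptors reached 1 TPM in both libraries for 9 of 10, led by the integrin subunit Itgb1 (299 TPM in replicate 2, 351 in replicate 1), the collagen-activated kinase Ddr2 (57.5 TPM in replicate 2, 65.5 in replicate 1) and the integrin subunit Itga1 (20.8 TPM in replicate 2, 31.6 in replicate 1). The platelet receptor Gp6 had 0 TPM in both. Among degrading enzymes 5 of 8 did, a share near that of all protein-coding genes, led by Mmp2 (238 TPM in replicate 2, 215 in replicate 1), Mmp14 (162 TPM in replicate 2, 134 in replicate 1) and the cathepsin Ctsk (89.9 TPM in replicate 2, 67.5 in replicate 1). The interstitial collagenases were low, with Mmp1a at 0 TPM in both libraries, Mmp8 at 0 TPM in replicate 2 and 0.04 in replicate 1 and Mmp13 at 0.12 TPM in replicate 2 and 0.10 in replicate 1. Of fibril-binding genes 11 of 13 did, led by the proteoglycan Dcn (2679 TPM in replicate 2, 2371 in replicate 1), Sparc (2442 TPM in replicate 2, 2024 in replicate 1) and the fibronectin gene Fn1 (517 TPM in replicate 2, 609 in replicate 1). Kera, of the cornea (0.43 TPM in replicate 2, 0.19 in replicate 1), and Comp, of cartilage (0.15 TPM in both), were under 1 TPM. Only those of the 66 with a mean of at least 1 TPM were compared between the libraries. Of them 2 were past 2-fold, both lower in replicate 2. Creb3l1, a transcription factor known to act on Col1a1 in bone, had 3.71 TPM in replicate 2 and 10.8 TPM in replicate 1 (log2 -1.51 relative to the median gene). Pcolce2, a relative of Pcolce, had 2.49 TPM in replicate 2 and 6.94 TPM in replicate 1 (-1.40). Over all genes with such a mean 1.46% were lower in replicate 2 past 2-fold.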

How the data were processed

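The 44 collagens, their classes and the other gene lists were chosen with earlier results of these data known. The authors deposited expected counts and TPM per gene and transcript on mm10 with GENCODE M4, per the file headers and deposited descriptions; RPKM per Ensembl 65 gene and counts of junction reads, both on mm9, were deposited for the series. The names of the aligner and counting tool were not given in the sources used here. Rows that are not Ensembl genes, left out, held 5.98% (replicate 2) or 5.01% (replicate 1) of counts. Symbols, positions and exon sequences come from GENCODE M21. Ratios between libraries are log2 with 0.5 TPM added, which understates ratios of low genes. The median over genes that average 1 TPM or more (0.08) was taken off them. Chain-pair ratios had no median taken off, and those in mm9 RPKM had nothing added. Ratios of mm9 over mm10 are relative to the median of that comparison (-2.38 before scaling). Genes named are all members of at least 5 TPM, chain pairs, transcripts of at least 20% in members of at least 20 TPM, members past 2-fold, and the 3 highest and all under 1 TPM of each list; others were named after their values were seen. Exon joins need at least 20 reads, and inclusion is the mean over including junctions. The ratio and trend steps were tested on simulated data. Python 3.11.15 (numpy 2.4.6, pandas 2.3.3, scipy 1.17.1, matplotlib 3.10.9) and edgeR 4.0.16 in R 4.3.3 (TMM scaling only) were used.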

Additional observations from a re-analysis of the deposited data

How the results depend on the processing

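No paired analysis was possible because the design has 1 group. Of 253 alternative values, 182 stayed within the spread between libraries or within 1.5 times a count, 60 moved and 11 changed sign. The collagen share of gene TPM (0.520%) was 1.74% of expected counts, 0.608% of mm9 RPKM and 0.622% without mitochondrial genes. The fibril-forming share of collagens (65.9%) was 67.6% by counts, 62.9% by mm9 RPKM and 68.0% with long transcripts only. The fibril-associated share (7.87%) was 6.73% by counts, 9.81% by mm9 RPKM and 4.04% with long transcripts only. Col3a1 over Col1a1 (log2 0.59) was -0.045 in counts, which are not divided by length, -0.49 in mm9 RPKM and -0.024 with long transcripts only, and Col3a1 over Col1a2 was -0.39 in mm9 RPKM. Col5a1 over Col5a2 (0.049) was -0.64 in mm9 RPKM, -0.11 with long transcripts only, -0.12 without replicate 1 and 0.22 without replicate 2. Col4a3 over Col4a4 (-0.31) was 0.30 in mm9 RPKM. Col12a1 over Col14a1 (0.088) was 1.03 in mm9 RPKM, -0.61 with long transcripts only, 0.31 without replicate 1 and -0.14 without replicate 2. Col15a1 over Col18a1 (1.03) was 0.49 in counts, 1.43 in mm9 RPKM and 0.037 with long transcripts only. Col1a2 over Col1a1 (-0.071) was 0.096 without replicate 1 and -0.24 without replicate 2. The 4 collagens past 2-fold between mm9 and mm10 became 1 with 0.1 added, 1 with a 5 TPM minimum, 1 with RPKM scaled to sum to 1000000 and 33 with no minimum, where the median gene is near 0 in both tables; the first 3 causes were not tested. With long transcripts only there were 3, and 0 of them were among the 4. No alternative put a collagen past 2-fold between the libraries. The long-transcript and scaled-RPKM alternatives were chosen after seeing the data. Levels under 0.1 TPM rest on 39 or fewer expected counts per library.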
